A study of Mus musculus with 6 samples.

Results

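Integrins and laminins form the anchor between basal cells and the basement membrane. The members described here are the genes whose symbols the rule admits: integrin alpha chains (Itga followed by letters or digits), integrin beta chains (Itgb and a number) and laminin chains (Lama, Lamb or Lamc and a digit). A probe reached a symbol through its RefSeq accession, and 48 probes of 36 such genes were found, out of 21368 genes with a named probe on the array. Of these, 31 genes had a probe that stood clear of background on 3 or more arrays, whatever the group, and they are among the 17848 genes tested. On the probe used for each gene, no tested member passed that filter through 1 group alone (0 genes). A second probe of Itga10 did so, through vehicle.

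The cells came from the epidermis of depilated male mice. Either acetone, which is the vehicle, or DMBA (7,12-dimethylbenz[a]anthracene) was applied topically. DMBA is a polycyclic hydrocarbon that becomes mutagenic after metabolic activation. After 3 days, cells bright for a keratin 15 EGFP reporter and for integrin alpha 6, and negative for Sca1, were sorted as the follicle stem cell and hair germ fraction. Each group held 3 samples from different mice, with 1 array each. Strain and age are not given in the sources used here. Itga6 encodes the antigen of the sort gate, so cells low in that protein had already been removed from every sample. Values are log2 processed intensities minus the log2 75th percentile of the array, so 0 is the 75th percentile and a step of 1 is a 2-fold difference within one probe. Levels are not compared between genes, because probes differ in brightness for the same amount of RNA.

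An integrin is a pair of one alpha and one beta chain that spans the membrane and holds matrix or a neighbouring cell on the outside and the cytoskeleton on the inside. A laminin is a trimer of an alpha, a beta and a gamma chain laid down in the basement membrane. In basal keratinocytes, integrin alpha 6 beta 4 binds laminin 332, which holds the Lama3 and Lamb3 products, in hemidesmosomes, while alpha 3 beta 1 binds it in focal adhesions. Surface integrin alpha 6 is a standard handle for sorting basal and follicle stem cells, and the alpha V integrins can release active TGF-beta from its latent complex.

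Each gene was read on its brightest kept probe. Most laminin chains and keratinocyte integrins overlapped between the groups there. On that probe 4 members, led by the leukocyte beta chain Itgb2, were higher in every DMBA sample than in any vehicle sample. The groups overlapped on the second probes of Itga4, Itgav and Lama2, and Itgb2 had no second probe. No member passed the test over all genes (limma, Benjamini-Hochberg adjusted p under 0.05; smallest member adjusted p = 0.660 for Itgb2), and 0% of all genes tested did. At unadjusted p under 0.05, 2 of 31 members were higher (6.45%), Itgb2 and Itga4, beside 2.73% of all genes. In the other direction 0 members stood lower, beside 2.49% of all genes, and either way the share over all genes was 5.23%. The lowest DMBA value exceeded the highest vehicle value in 4 members (12.9%: Itgb2, Itga4, Itgav and Lama2), against 4.87% of all genes, and the reverse held in 0 members, against 5.17%. The median log2 fold change was -0.05 over the 31 members and -0.01 over all genes, with 14 members above 0 and 17 below. In samples of sorted cells, fewer cells with a transcript and less of it per cell cannot be told apart.

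For the members in which all DMBA arrays lay higher, the promoter windows are shown because they are the regulatory sequence nearest to that difference. The window is the stretch from 250 bases before to 50 after the annotated start, from RefSeq (GRCm38.p6), and the table held windows for 23 of the 36 genes, among them Itga4, Itgav and Lama2. Capitals mark GCGTG, the core that the DMBA-sensing aryl hydrocarbon receptor (AHR) binds, and GGGCGG, the GC box, on either strand.
Itga4 (chr2:79255176-79255475, plus strand): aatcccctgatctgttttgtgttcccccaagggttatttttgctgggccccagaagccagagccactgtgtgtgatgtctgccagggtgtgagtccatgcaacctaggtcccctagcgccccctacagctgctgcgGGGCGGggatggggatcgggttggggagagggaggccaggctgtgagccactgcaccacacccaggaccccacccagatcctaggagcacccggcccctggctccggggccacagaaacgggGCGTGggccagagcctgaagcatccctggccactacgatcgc
Itgav (chr2:83724147-83724446, plus strand): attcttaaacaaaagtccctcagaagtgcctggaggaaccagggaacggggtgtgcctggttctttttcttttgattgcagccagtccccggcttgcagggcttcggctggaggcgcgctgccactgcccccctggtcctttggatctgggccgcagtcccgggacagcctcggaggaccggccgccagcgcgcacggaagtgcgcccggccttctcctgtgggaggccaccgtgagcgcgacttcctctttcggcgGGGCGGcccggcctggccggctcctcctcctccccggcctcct
Lama2 (chr10:27616893-27617192, minus strand): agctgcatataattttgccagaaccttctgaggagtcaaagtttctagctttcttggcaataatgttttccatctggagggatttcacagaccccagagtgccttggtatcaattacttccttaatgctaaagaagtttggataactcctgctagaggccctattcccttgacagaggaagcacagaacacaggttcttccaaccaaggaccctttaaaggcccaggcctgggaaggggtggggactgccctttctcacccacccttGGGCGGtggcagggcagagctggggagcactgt

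Each of these windows held 1 GC box, as did 12 of 26 member windows in some number and 35.7% of all 32851 windows in the table. Among these 3 windows the AHR core was found once, in Itga4, with its first base at position 259 of the window. It was present in 7 of 26 member windows and 32.4% of all windows. The half-site of p53, the factor activated by DNA damage, was searched by name on both strands and was found in 1 of 26 member windows, against 8.4% of all. Median GC content was 58.85% in the member windows and 52.7% in all. These matches describe letters in a window and say nothing about binding.

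**Figure D1:**
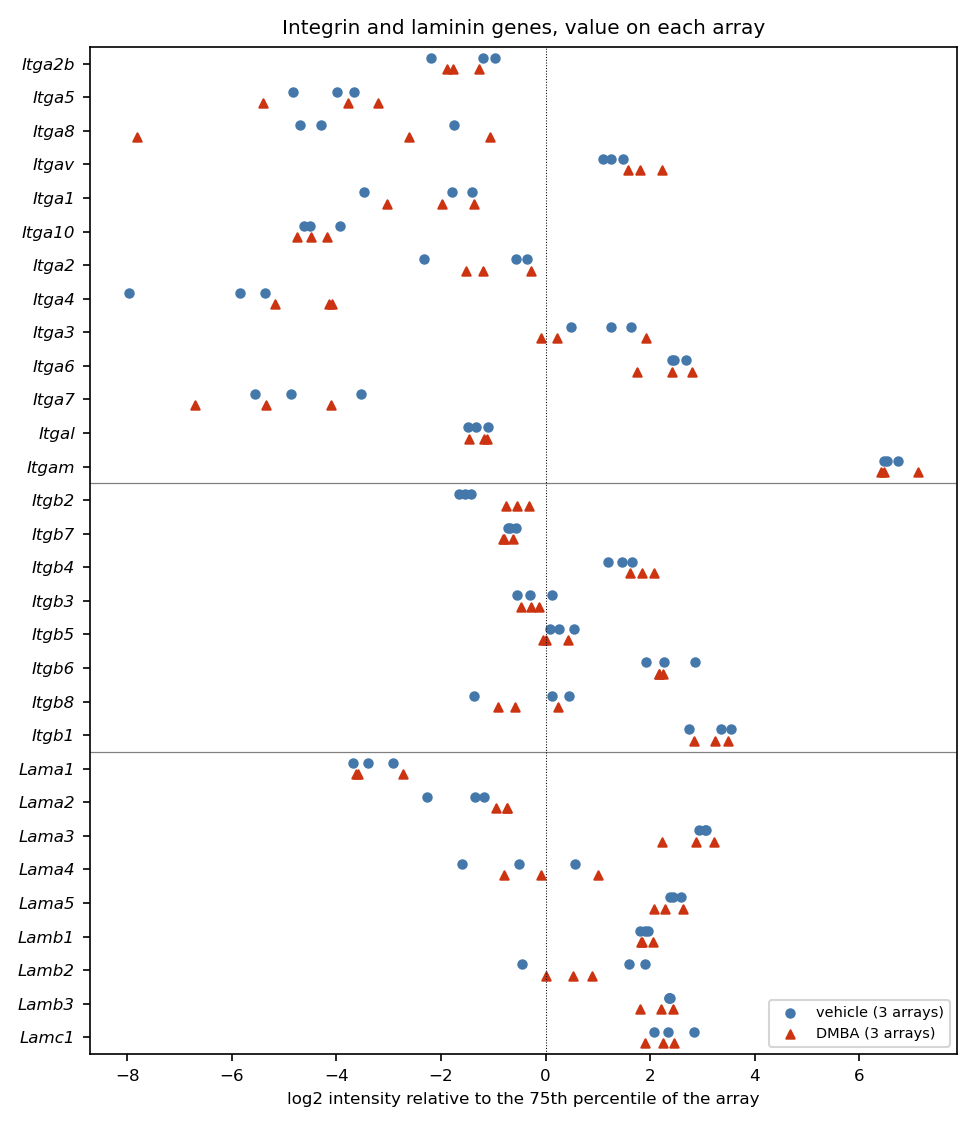
Value of 30 tested genes on each of the 6 arrays (x axis, log2 intensity relative to the 75th percentile of the array; circles, vehicle; triangles, DMBA), with alpha chains at the top, beta chains in the middle and laminins at the bottom. The groups stand apart for Itgb2, Itga4, Itgav and Lama2 and overlap for the other genes. Itga8 is spread from -7.81 to -1.07 within the DMBA group, and its -7.81 was not well above background. Positions compare arrays within a gene, not one gene with another.

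Lama3 and Lamb3, chains of laminin 332, differed between the groups by less than the spread between arrays. Lama3, the alpha chain, read 2.93, 3.04 and 3.06 on vehicle 1 to 3 and 2.22, 2.87 and 3.22 on DMBA 1 to 3. Lamb3, the beta chain, read 2.35, 2.37 and 2.36 in vehicle and 2.44, 2.20 and 1.81 in DMBA. The vehicle arrays almost coincided for both, with an SD of 0.07 for Lama3 and 0.01 for Lamb3 (n = 3), while the DMBA arrays spread over both sides of them, with SDs of 0.51 and 0.32. The log2 fold changes were -0.24 (SE 0.31; 95% interval -0.98 to 0.50) and -0.21 (-0.81 to 0.38), so that on these probes neither interval reached a 2-fold difference. DMBA 1 held the lowest Lama3 value, and without it the Lama3 estimate was 0.04. A dimmer Lama3 probe read -2.05 on DMBA 1 against -0.43 and -0.13 on the other DMBA arrays and from -0.31 to 0.12 in vehicle. Its estimate was -0.78 (SE 0.53; interval -2.07 to 0.51), and the mean of both Lama3 probes gave -0.51 (SE 0.41), so a 2-fold lower level is within that interval.

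Laminins 511 and 521, the other main laminins of epidermal basement membrane, are built from Lama5, Lamb1 or Lamb2, and Lamc1. Lama5, their alpha chain, read 2.37, 2.59 and 2.44 in vehicle and 2.07, 2.28 and 2.62 in DMBA. Lamb1 had the smallest spread, with 1.90, 1.80 and 1.96 in vehicle and 1.83, 1.85 and 2.05 in DMBA. Lamc1, the shared gamma chain, read 2.34, 2.08 and 2.84 in vehicle and 1.90, 2.46 and 2.24 in DMBA. The groups overlapped in each case, with log2 fold changes of -0.14 (SE 0.24), 0.02 (SE 0.21) and -0.22 (SE 0.29) and intervals within -1 and 1. Lamb2, the beta chain of laminin 521, was uneven: -0.45, 1.59 and 1.91 in vehicle, 0.89, 0.52 and 0.01 in DMBA. Its low value was that of vehicle 1, the array that sat alone on its slide and scan. Its log2 fold change was -0.54 (SE 0.65) over all arrays and -1.27 (SE 0.35) without vehicle 1, where it passed unadjusted p under 0.05.

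Laminin chains better known from muscle, vessels and nerve had the largest positive log2 fold changes of the laminins, without passing the test. Lama2, the alpha chain of laminin 211 in muscle and Schwann cell basement membrane, read -1.34, -1.18 and -2.27 in vehicle and -0.74, -0.95 and -0.73 in DMBA. Every DMBA array lay above every vehicle array. The log2 fold change was 0.79 (SE 0.34, adjusted p = 0.963), 0.45 without vehicle 3 and 1.00 without vehicle 2. The dimmer Lama2 probe gave 1.09 (SE 1.17) with overlapping groups. It read -3.25, -3.48 and -7.50 in vehicle and -3.51, -4.32 and -3.14 in DMBA. The lowest signal well above background on vehicle 3 was -6.82, so the 1.09 rests on a reading without a firm level. Lama4, the alpha chain of endothelial laminin 411, read 0.57, -0.50 and -1.59 in vehicle and -0.08, -0.80 and 1.01 in DMBA, with groups that overlapped throughout. Lama1, the alpha chain of embryonic basement membranes, lay from -3.68 to -2.91 in vehicle and from -3.62 to -2.73 in DMBA (log2 fold change 0.02, SE 0.35). Lamc3 was detected above background by 1 array only, of the DMBA group, and was left untested.

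Because Lama2 and Itga4 are also made by cells other than keratinocytes, markers of such cells were read on the same arrays. Of 6 Schwann cell markers tested, 4 were higher and 2 lower after DMBA, and their summed linear level ran from 16.2 to 17.8 in vehicle and from 16.5 to 20.6 in DMBA. The 6 markers of smooth muscle and arrector pili summed to 5.71 to 6.51 in vehicle and 5.85 to 7.63 in DMBA, with 5 higher and 1 lower. Of these, Actg2, a smooth muscle actin, had each DMBA array above each vehicle array (0.41, SE 0.23). Endothelial markers summed to 2.21 to 2.36 in vehicle and 2.09 to 2.83 in DMBA, with 3 of the 5 tested higher and Tie1 at background. Melanocyte markers, 6 in all, summed to 1.82 to 4.19 in vehicle and 3.96 to 6.45 in DMBA, with 3 higher and 3 lower. Of these, 2 were higher at unadjusted p under 0.05, Mlana (2.72, SE 0.95) and Tyrp1 (3.35, SE 1.32), both with overlapping groups. Tyrp1 was well above background on 1 vehicle array only. Such sums follow the brighter probes of a list, so every listed marker whose groups did not overlap is also given by name.

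Of the 4 fibroblast markers tested, 3 were higher and 1 lower, with a median log2 fold change of 0.90, 1 higher at unadjusted p under 0.05, and Pdgfra well above background on no array. Dcn, the matrix proteoglycan decorin, read -1.64, -2.20 and -1.63 in vehicle and -0.35, -0.39 and -0.21 in DMBA (1.51, SE 0.25; adjusted p = 0.445). Col1a1, a chain of collagen I, read -3.93, -3.69 and -4.53 in vehicle and -3.14, -3.60 and -1.53 in DMBA (1.29, SE 0.57). Like Lama2, both had each DMBA array above each vehicle array. The lower marker was Col3a1 (-0.52, SE 0.34), and Col1a2 gave 0.51 (SE 0.62), both with overlapping groups. The list sums, from 1.02 to 3.10 in vehicle and 2.57 to 3.16 in DMBA, overlapped and were carried by Col1a2.

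Markers of infundibulum and interfollicular epidermis summed to 38.4 to 75.6 in vehicle and 51.8 to 72.9 in DMBA, with 5 of 6 higher. The one at unadjusted p under 0.05 was Ly6a, which encodes Sca1, the antigen for which the cells were sorted as negative. It read -0.20, -1.67 and -1.78 in vehicle and 0.29, 0.27 and 0.13 in DMBA (1.45, SE 0.45; adjusted p = 0.854), without overlap. The 10 markers of the sorted follicle cells, which include Itga6, split 5 to 5 and summed to 344.3 to 399.7 in vehicle and 356.1 to 526.7 in DMBA. Among them Lgr5, a stem cell marker of the lower bulge and hair germ, read 3.48, 3.10 and 3.34 in vehicle and 2.63, 2.75 and 2.62 in DMBA (-0.64, SE 0.22; lower at unadjusted p under 0.05). Sox9, a bulge transcription factor, also had each DMBA array below each vehicle array (-0.50, SE 0.24), and Lgr6, a marker of the upper follicle, each above (0.85, SE 0.47). The part of these cell types in the member values was not tested.

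**Figure D2:**
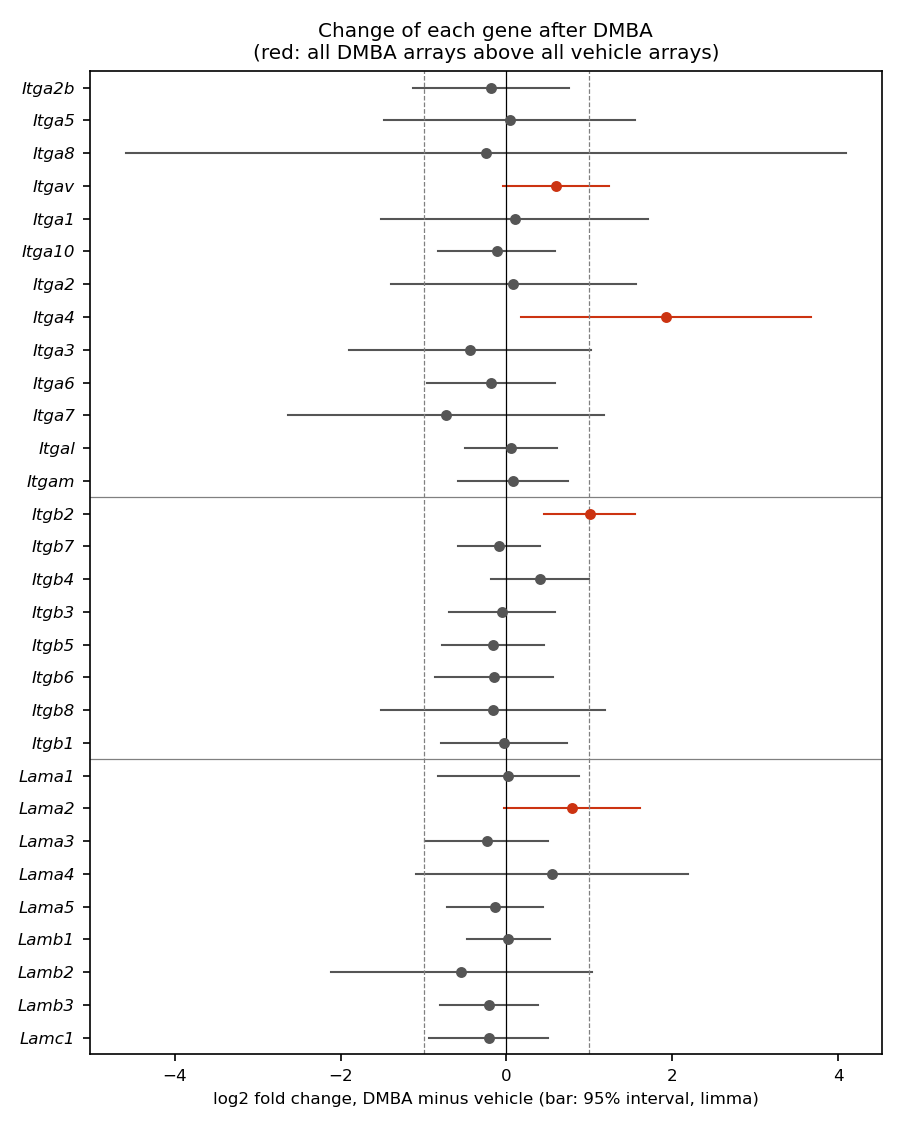
Log2 fold change of 30 tested genes (x axis, DMBA minus vehicle; point, limma estimate; bar, 95% interval; dashed lines, a 2-fold change either way). The 4 genes in red have all DMBA arrays above all vehicle arrays, and the bars of 16 of the 30 genes lie wholly between the dashed lines.

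Among the laminin receptors, the chains of the hemidesmosome integrin overlapped between the groups. Itga6, the gate antigen, read 2.46, 2.42 and 2.68 in vehicle and 1.76, 2.80 and 2.42 in DMBA, with DMBA 1 lowest and the groups overlapping (log2 fold change -0.19, SE 0.32; 0.10 without DMBA 1). Its partner Itgb4 read 1.20, 1.46 and 1.64 in vehicle and 1.60, 2.07 and 1.83 in DMBA. For Itgb4 the lowest DMBA value fell just under the highest vehicle value, and the estimate was 0.40 (SE 0.25; interval -0.19 to 1.00). Itgb4 stayed above 0 whichever array was left out, from 0.28 to 0.52. Of the other genes of the hemidesmosome, the linker Plec, the collagen Col17a1 and the linker Dst had log2 fold changes of 0.01 (SE 0.30), -0.07 (SE 0.24) and -0.19 (SE 0.22), and the tetraspanin Cd151 0.66 (SE 0.44).

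Itgb1, the beta chain shared by the collagen, laminin and fibronectin receptors of keratinocytes, read 2.74, 3.54 and 3.36 in vehicle and 2.83, 3.24 and 3.49 in DMBA. Its estimate was -0.03 (SE 0.31), and a second probe of almost equal brightness gave -0.20 (SE 0.25). Itga3, the alpha chain of the focal adhesion receptor for laminin 332, was less even: 0.48, 1.24 and 1.64 in vehicle and 1.93, -0.10 and 0.21 in DMBA. A single DMBA array held the highest Itga3 value of all 6 and the other DMBA arrays the lowest. The estimate moved from -0.44 (SE 0.60) over all arrays to -1.06 (SE 0.40) without DMBA 1, where Itga3 passed unadjusted p under 0.05. Itga7, a laminin receptor chain of muscle, lay close to background, with -4.87, -5.56 and -3.53 in vehicle and -5.34, -6.70 and -4.11 in DMBA. Its groups overlapped (-0.73, SE 0.79), and it was well above background on 2 of the 3 DMBA arrays.

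The collagen receptor chains moved little on average on their brightest kept probes, and Itga1 and Itga2 varied widely between arrays. Itga2, which pairs with beta 1 on keratinocytes, read -0.56, -0.35 and -2.32 in vehicle and -1.52, -0.27 and -1.19 in DMBA (0.08, SE 0.61). The sign for Itga2 changed with the array left out: the estimate was -0.54 without vehicle 3 and -0.28 without DMBA 2. Itga1 and Itga10 had log2 fold changes of 0.10 (SE 0.67) and -0.12 (SE 0.29), and a dimmer Itga1 probe gave -0.01 (SE 0.26). A second, dimmer Itga10 probe read -5.66, -5.79 and -4.37 in vehicle, each well above background, and -6.03, -5.48 and -6.96 in DMBA, none of them so. The estimate on that probe was -0.88 (SE 0.54; interval -2.20 to 0.44), and its groups overlapped, with DMBA 2 above vehicle 1 and 2. This probe passed the filter through the vehicle arrays alone, so its estimate and interval carry that selection. The lowest signal well above background on DMBA 2 was -5.025. With DMBA 2 and 3 raised to that lowest signal of their array, the vehicle mean was 1.30-fold higher, a figure that leaves out the spread between arrays. Itga11 was well above background on no array.

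The alpha V group binds the RGD motif of fibronectin, vitronectin and the latent TGF-beta complex. Itgav read 1.48, 1.09 and 1.25 in vehicle and 1.80, 2.23 and 1.57 in DMBA, so all DMBA arrays were higher, by 1.51-fold on average (log2 fold change 0.60, SE 0.26, adjusted p = 0.963). A second Itgav probe of like brightness did not show this: it read 1.44, 1.13 and 0.92 in vehicle and 0.32, 1.40 and 0.38 in DMBA, an estimate of -0.46 (SE 0.37). With both probes averaged the value was 0.07, so the direction for Itgav depends on the probe.

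The beta partners of alpha V overlapped between groups. Itgb6, an epithelial TGF-beta activator, read 1.91, 2.85 and 2.26 in vehicle and 2.16, 2.16 and 2.24 in DMBA. The DMBA arrays for Itgb6 lay within the vehicle range (-0.15, SE 0.29), and its dimmer probe gave 0.02 (SE 0.23). Itgb5 read 0.26, 0.09 and 0.54 in vehicle and -0.06, 0.01 and 0.44 in DMBA (-0.17, SE 0.25). Itgb8, the other TGF-beta activator, was scattered in both groups, with 0.45, -1.37 and 0.13 in vehicle and -0.91, 0.23 and -0.59 in DMBA (-0.16, SE 0.56). Itgb3, which platelets and endothelium also use, gave -0.05 (SE 0.26) on its brighter probe and 1.29 (SE 0.68) on a probe 25.1-fold dimmer. The second value rests on DMBA 3, which read -2.77 beside -5.44 and -4.61 on the other DMBA arrays.

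Itga8 joins beta 1 as the receptor for nephronectin (Npnt), which follicle bulge cells deposit for the arrector pili muscle. It showed the widest spread of all members: -4.69, -1.75 and -4.29 in vehicle and -7.81, -1.07 and -2.61 in DMBA. Both extremes of Itga8 fell within the DMBA group. The lower, on DMBA 1, lay below -6.545, the lowest signal well above background on that array, so it has no firm level. The Itga8 estimate ran from -1.63 without DMBA 2 to 1.74 without DMBA 1 around -0.25 (SE 1.80), so no direction can be read. Npnt itself read 1.91, 2.61 and 3.00 in vehicle and 3.27, 2.88 and 3.11 in DMBA (0.58, SE 0.33), with 1 DMBA value below the highest vehicle value. Itga5, the fibronectin receptor chain, lay from -4.83 to -3.67 in vehicle and from -5.39 to -3.20 in DMBA (0.04, SE 0.62). Its -5.39, on DMBA 2, was not well above background. Itga9, a tenascin and VCAM1 receptor chain, was well above background on no array.

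The member with the smallest p was Itgb2, the beta chain of the leukocyte integrins LFA-1 and Mac-1. It read -1.54, -1.66 and -1.43 in vehicle and -0.55, -0.75 and -0.31 in DMBA. The gap between the groups was wider than the spread within either, on a probe well above background on all 6 arrays. Mean values were -1.54 ± 0.11 (SD, n = 3) and -0.54 ± 0.22, a 2.01-fold difference (log2 fold change 1.00, SE 0.23; adjusted p = 0.660). The estimate lay between 0.89 and 1.11 whichever array was left out and between 0.87 and 1.02 under the other processing choices, and it passed unadjusted p under 0.05 under each of them.

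The alpha chains that pair with beta 2 gave mixed readings. Itgal, the alpha chain of LFA-1, read -1.33, -1.11 and -1.48 in vehicle and -1.13, -1.18 and -1.46 in DMBA, an estimate of 0.05 (SE 0.23) with an interval from -0.50 to 0.61. A second Itgal probe, 14.5-fold dimmer and well above background on 2 arrays of each group, gave 0.83 (SE 0.57; interval -0.56 to 2.21) with overlapping groups. For Itgam, the alpha chain of Mac-1, the brightest probe gave 0.07 (SE 0.27) and was 476-fold brighter than the dimmest probe of the gene. Whether the brightest probe reads Itgam alone was not tested, so its value is no firm measure of the gene. The dimmer Itgam probes gave 0.31 (SE 0.26), with -1.86, -1.92 and -2.04 in vehicle just below -1.24, -1.80 and -1.83 in DMBA, and 0.66 (SE 0.50) with overlapping groups. Itgad was detected on a single array, of the vehicle group, and Itgax on 1 array of each group, so neither was tested. Itgb7, the beta chain of gut-homing lymphocytes, lay from -0.72 to -0.56 in vehicle and from -0.82 to -0.62 in DMBA (-0.09, SE 0.21).

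Leukocyte markers did not move with Itgb2 as a list. Of the 12 tested, 5 were higher and 7 lower (median -0.08), and none passed unadjusted p under 0.05 (0 in either direction). Their summed linear level ran from 7.38 to 9.94 in vehicle and from 7.19 to 9.56 in DMBA, and was carried mostly by Csf1r and Cd247. Ptprc, which encodes the pan-leukocyte antigen CD45, read -1.47, -1.54 and -1.51 in vehicle and -1.28, -1.85 and -1.67 in DMBA. Laptm5, a lysosomal protein of blood cells, had the largest value of the list, with -5.21 on DMBA 1 but -2.04 and -0.65 on DMBA 2 and 3, against -5.05 to -4.75 in vehicle.

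Itga4, which with beta 1 or beta 7 binds VCAM1 and fibronectin on leukocytes, had the largest log2 fold change of the members as processed here; with normexp it was below that of Itgb2 (0.79 against 0.87). Its probe in use read -5.84, -5.36 and -7.96 in vehicle and -4.14, -4.08 and -5.18 in DMBA. The groups did not overlap, but the probe was dim: 2 of the 3 vehicle readings and each DMBA reading stood well above background. On vehicle 3 the lowest signal well above background was -6.82, so its -7.96 has no firm level. The log2 fold change was 1.92 (SE 0.72; adjusted p = 0.938), 1.14 without vehicle 3, the lowest array, and smaller under normexp, as given above. Its second probe, well above background on 1 array of each group, gave a difference of -0.02. Vcam1, the ligand of this receptor, went the other way, with -3.56, -2.70 and -3.52 in vehicle and -4.62, -4.18 and -5.27 in DMBA (-1.43, SE 0.39; adjusted p = 0.752). Itga2b, the platelet alpha chain, lay from -2.19 to -0.96 in vehicle and from -1.88 to -1.27 in DMBA (-0.19, SE 0.39). Of 7 platelet markers 3 were tested, with sums of 1.23 to 1.49 in vehicle and 1.29 to 1.65 in DMBA, and Pf4 and Ppbp were well above background on no array.

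**Figure D3:**
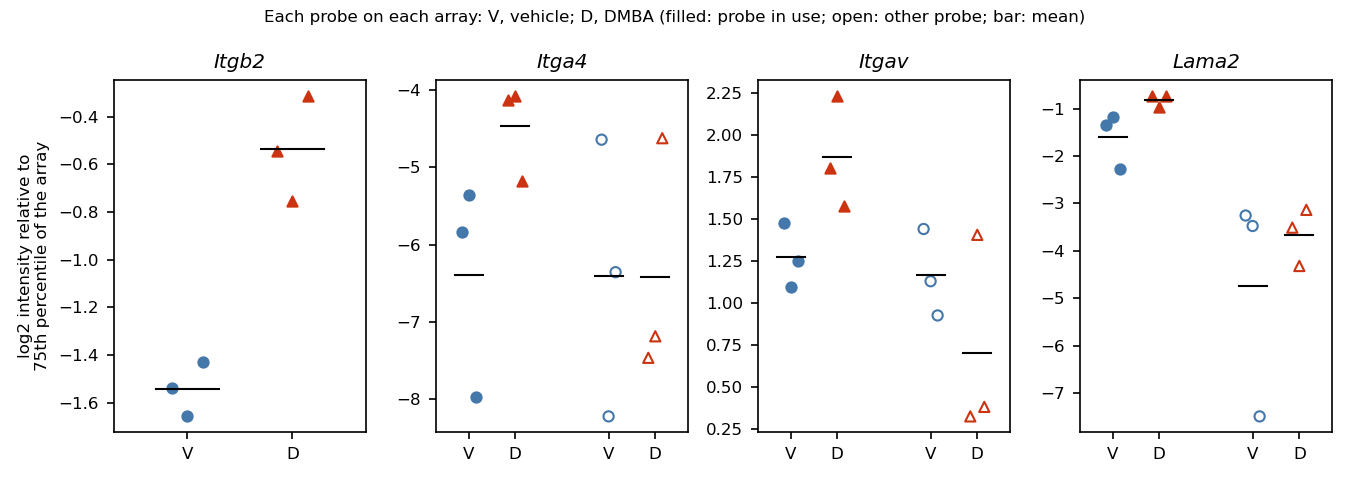
Each probe of Itgb2, Itga4, Itgav and Lama2 on each array (y axis, log2 intensity relative to the 75th percentile of the array, with its own scale in each panel; circles, vehicle; triangles, DMBA; bars, means; filled, probe in use; open, second probe). The groups are apart on every filled probe and overlap on every open probe, with Itgav higher after DMBA on its filled probe (0.60) and lower on its open one (-0.46).

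Genes that work with integrins were taken from a list of 73, of which 71 were tested. At unadjusted p under 0.05, 5 were higher and 2 lower (9.86%, against 5.23% of all genes), with a list median of 0.03. The talins, kindlins and the ILK complex, which switch integrins on and tie them to actin, had 6 genes above 0 and 6 below, with 0 at unadjusted p under 0.05. Ilk, the scaffold of that complex, read 1.48, 1.97 and 2.08 in vehicle and 1.54, 1.22 and 1.33 in DMBA (-0.48, SE 0.25). The 14 genes of focal adhesions split 7 to 7, again with 0 at that level.

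The partners with the smallest p were ligands and matrix proteins. Ltbp2, a microfibril protein of the latent TGF-beta binding protein family, read 0.96, 0.21 and 0.73 in vehicle and 1.68, 2.28 and 2.22 in DMBA (1.43, SE 0.30; adjusted p = 0.581). Tgfb1, whose latent form alpha V integrins activate, read -3.24, -2.83 and -3.33 in vehicle and 0.27, -1.57 and -2.08 in DMBA (2.01, SE 0.61). Ccn1 and Ccn2, secreted proteins that bind integrins, had log2 fold changes of 1.56 (SE 0.54) and 0.66 (SE 0.27). Ntn4, a netrin that binds laminin gamma chains, gave 1.54 (SE 0.52), and Col4a6, a basement membrane collagen chain, -1.09 (SE 0.42). In each of these genes the groups did not overlap, and none passed over all genes (limma adjusted p from 0.581 to 0.954, with Vcam1 among them).

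How large a difference these arrays leave room for can be given for the brightest probe of each member. The 95% interval of the log2 fold change lay within -1 and 1, that is within a 2-fold change either way, in 17 of 31 members (54.8%) and in 39.0% of all genes. Among them were the laminin chains Lama1, Lama3, Lama5, Lamb1, Lamb3 and Lamc1 and the integrin chains Itga6, Itga10, Itgal, Itgam, Itgb1, Itgb3, Itgb4, Itgb5, Itgb6 and Itgb7. The intervals are without adjustment over genes. On second kept probes of Lama3, Itga10, Itgal, Itgam and Itgb3 the interval reached past 2-fold, so for these 5 genes the limit holds for the brightest probe only. The second Itga10 probe was kept through the vehicle arrays alone. The median residual SD was 0.36 over the members and 0.45 over all genes.

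**Figure D4:**
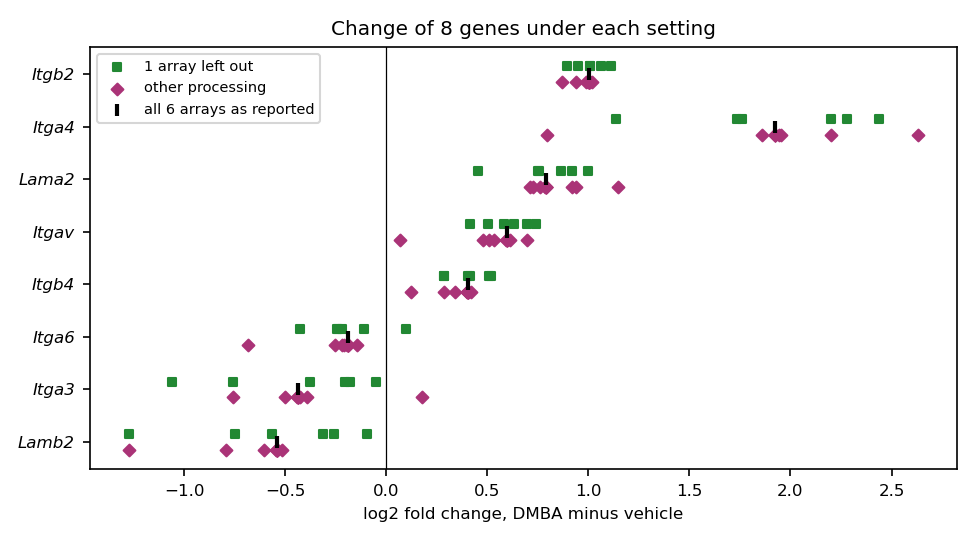
Log2 fold change (x axis, DMBA minus vehicle) of 8 members under each setting: black ticks, all 6 arrays as reported; squares, 1 array left out; diamonds, other processing. Itgb2 stays within 0.87 and 1.11, while Itga3 ranges from -1.06 to 0.18 and Lamb2 from -1.27 to -0.10.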

How the data were processed

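RNA of 6 samples was hybridised to 1-colour Agilent arrays. Per the file headers and the submitters' processing notes, the scans were quantified with Agilent Feature Extraction, version 10.7.1.1. The deposited scanner files hold background-subtracted spot intensity on a linear scale. The deposited matrix holds intensity divided by the 75th percentile of each array (column 75th percentiles from 1.004 to 1.007) and served as an alternative. Deposited flags of 0 or 1 mark other properties, such as a spot well above background.

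Log2 intensities were scaled to each array's 75th percentile over 55681 probes without controls. Outlier spots were set missing (45 probe values, none of a member), spots of a probe averaged, and each gene represented by its brightest kept probe. For 10 members more than 1 probe was kept, and 4 of these gave opposite signs. DMBA was compared with vehicle with limma 3.58.1 in R 4.3.3 (lmFit and eBayes, two-sided), with Benjamini-Hochberg adjustment over 17848 genes, after a check on simulated data. Symbols came from GRCm38.p6 RefSeq accessions, for names only, since the headers name mm9; Itgae had no matching probe and is not analysed here. One tested member counts in the totals but is not reported here by name or plotted.

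The 75th percentile intensity ran from 1355 to 2274, and 69.3% to 83.6% of probes were well above background, with the 2 lowest shares on DMBA 2 and DMBA 3. Arrays correlated across genes with r from 0.937 to 0.951 within groups and from 0.934 to 0.948 between them. The number of arrays limits precision.

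Members and lists were chosen with earlier results of these data known. Values per array are given for members at unadjusted p under 0.05, subunits known in keratinocytes, the 4 largest changes on probes well above background throughout a group, and some others added after their values were seen. Alternatives were normexp, quantile and median scaling, the matrix, filters on dim probes, probe averaging, outlier spots kept, another variance model, slide, replicate and detection terms, and leaving out each array.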

Additional observations from a re-analysis of the deposited data

How the results depend on the processing

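No gene passed over all genes under any alternative except without vehicle 2, where 1 did, Apln, which is no member (from 0 to 1 with an array left out). Members higher at unadjusted p numbered 2 in most settings and 1 to 3 when an array was left out, lowest without DMBA 1 or DMBA 2, where Itga4 missed the level; 3 were reached with Lama2 added under normexp, the share of probes above background as a covariate or without vehicle 2, and with Itgav added under another variance model. With probes required above background on all 6 arrays the 2 were Itgb2 and Lama2, since Itga4 was then not tested. The count of lower members was 0, but 1 with slide as a covariate, which equals leaving out vehicle 1 (Lamb2), and 0 to 1 with an array left out (Itga3 without DMBA 1). The members' median of -0.05 was -0.11 with median scaling, where that of all genes was -0.07. With slide as a covariate the members' median was -0.12, where that of all genes was 0.01. It was -0.0002 under normexp and 0.0057 with the share of probes above background as a covariate, where that of all genes was 0.10. It ran from -0.12 to -0.0061 with an array left out. Adhesion partners at unadjusted p numbered 7, and 4 to 8 with an array left out, lowest without vehicle 2. With replicate number as a replicate block the member counts were 2 higher, 0 lower and the median -0.05, and it changed no member's call. The adhesion count was then 6. As a check of pairing, same-numbered arrays correlated at 0.02, -0.02 and 0.06 in their deviations from group means. The planned normexp on mean signals could not be run, since the files hold median signals, and those were used instead, a choice made after seeing the files. Testing every probe on its own was also added then. Values near background, as for Itga4, Itga7 and Itga8, are limited by signal.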
